A study of Homo sapiens with 8 samples.

Results

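The DNA replication and E2F genes are 33 genes that encode the machinery copying DNA in S phase and the factors that time entry into it. They were taken by gene symbol from a table of gene body counts and a table of transcription start site (TSS) counts. All 33 were found among the 23193 genes in both. By role they comprise the MCM helicase (MCM2, MCM3, MCM4, MCM5, MCM6 and MCM7), origin licensing (ORC1, ORC6, CDC6 and CDT1), helicase activation (MCM10, CDC45, GINS1, GINS2, GINS3 and GINS4), polymerases and the sliding clamp with its loader (POLA1, POLE, PCNA, RFC2, RFC3, RFC4 and RFC5), nucleotide supply (RRM1, RRM2, TYMS and TK1), and S phase entry and checkpoint (E2F1, E2F2, CCNE1, CCNE2, CDC25A and CHEK1). Nascent RNA had been measured by precision run-on sequencing (PRO-seq), which labels the RNA that engaged polymerases extend in isolated nuclei. Reads along a gene body count polymerases in transit and reads near the start count polymerases at or just past the promoter. The cells were HCT116, an established human colorectal carcinoma line, in 4 groups of 2 libraries: WT cells in normoxia, WT cells at 1% O2 for 90 min (hypoxia), HIF1A-/- cells in normoxia and HIF1A-/- cells in the same hypoxia. Every culture also received the vehicle DMSO. The HIF1A-/- line was made by targeted recombination that disrupted internal exons of HIF1A, the oxygen-regulated subunit of the HIF1 transcription factor. It is a single derivative line, so the genotype and the history of that line cannot be told apart. The comparisons ask whether transcription of replication genes moved within the first 90 min of hypoxia and whether HIF1A bore on it.

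Before S phase, the origin recognition complex, with CDC6 and CDT1, loads the MCM helicase onto DNA in an inactive form. MCM10, CDC45 and the GINS complex then turn it into the active helicase, and DNA polymerases follow, held to the template by the PCNA clamp that the RFC complex loads. E2F factors activate many of these genes at the G1 to S transition, once cyclin E and other cyclin kinases have relieved their repression by RB, and CDC25A and CHEK1 act on the kinases that pace the phase. In a bulk culture, fewer cells in a given phase of the cycle and less transcription per cell cannot be told apart.

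Libraries held 18125234 to 23622392 gene body reads and 2783581 to 5966348 TSS reads, of which the 33 genes took 0.281 to 0.373% and 0.269 to 0.349%. A replication gene had between 286 reads (GINS3) and 8591 reads (POLA1) in its body, and between 16 (CCNE1) and 2916 (TK1) in its TSS region. Levels are given as counts per 1000000 reads (CPM) after TMM scaling, replicate 1 before replicate 2 of each group, and all 33 genes passed the filter on low counts in both regions. All 5 epithelial markers were transcribed, with a summed level of 103 to 179 RPKM (CPM per kilobase), against 1.28 to 3.23 RPKM for 6 markers of other lineages, mostly from COL1A1 (1.21 to 2.98 RPKM). KRT19 made up the largest part of the epithelial sum (71.9 to 130 RPKM). CDH1 was the lowest epithelial marker, at 0.707 to 1.51 RPKM, a range that overlaps that of COL1A1. HIF1A itself gave 129.6 to 161 gene body CPM in WT libraries and 137 to 175 in HIF1A-/- libraries, which does not check the labels, because its promoter was left in place. The bodies of GINS4, RFC4, E2F2 and CCNE2 overlap a gene on the opposite strand, and whether strand was used in the counting is not given in the sources used here, so reads of these 4 may include reads of the partner.

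The promoters below are shown because they are the DNA from which the measured polymerases start. They belong to E2F1 and to the 5 other genes, among those whose values are given in every library, with the smallest gene body p in any comparison. Each runs from 250 bases before the authors' start site through the first 50 transcribed bases (GRCh37, 5′ to 3′ on the strand of the gene), in lower case with E2F core matches in capitals.
E2F1, chr20:32274161-32274460, - strand: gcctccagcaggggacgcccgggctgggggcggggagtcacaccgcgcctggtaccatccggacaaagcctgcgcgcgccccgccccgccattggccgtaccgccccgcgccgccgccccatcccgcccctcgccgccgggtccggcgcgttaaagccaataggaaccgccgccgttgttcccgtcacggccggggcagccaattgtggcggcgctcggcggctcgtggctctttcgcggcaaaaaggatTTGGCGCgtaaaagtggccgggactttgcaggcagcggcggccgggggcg
MCM6, chr2:136633998-136634297, - strand: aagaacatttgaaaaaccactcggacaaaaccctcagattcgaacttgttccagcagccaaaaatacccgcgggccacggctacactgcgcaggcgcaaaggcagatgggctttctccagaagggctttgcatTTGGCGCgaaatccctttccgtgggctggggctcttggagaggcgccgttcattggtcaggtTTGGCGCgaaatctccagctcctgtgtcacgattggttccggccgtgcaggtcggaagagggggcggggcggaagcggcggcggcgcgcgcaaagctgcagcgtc
E2F2, chr1:23857663-23857962, - strand: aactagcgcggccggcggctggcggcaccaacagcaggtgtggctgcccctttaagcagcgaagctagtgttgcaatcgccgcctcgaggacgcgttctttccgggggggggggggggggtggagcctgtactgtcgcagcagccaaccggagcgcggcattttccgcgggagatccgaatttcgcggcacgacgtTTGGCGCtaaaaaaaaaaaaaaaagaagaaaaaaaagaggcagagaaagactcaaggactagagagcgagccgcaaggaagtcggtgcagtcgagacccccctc
TK1, chr17:76183236-76183535, - strand: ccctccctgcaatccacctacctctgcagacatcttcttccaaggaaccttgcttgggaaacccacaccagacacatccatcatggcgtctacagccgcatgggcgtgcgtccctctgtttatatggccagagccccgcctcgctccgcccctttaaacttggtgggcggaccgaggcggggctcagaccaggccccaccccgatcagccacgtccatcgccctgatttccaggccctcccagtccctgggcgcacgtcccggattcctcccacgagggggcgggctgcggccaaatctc
RFC5, chr12:118454215-118454514, + strand: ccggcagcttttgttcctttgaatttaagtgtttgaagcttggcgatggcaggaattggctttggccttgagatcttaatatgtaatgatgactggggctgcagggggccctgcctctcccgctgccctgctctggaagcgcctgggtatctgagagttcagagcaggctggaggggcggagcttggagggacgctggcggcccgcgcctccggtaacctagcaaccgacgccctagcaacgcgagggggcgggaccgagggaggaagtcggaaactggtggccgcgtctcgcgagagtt
CCNE1, chr19:30302650-30302949, + strand: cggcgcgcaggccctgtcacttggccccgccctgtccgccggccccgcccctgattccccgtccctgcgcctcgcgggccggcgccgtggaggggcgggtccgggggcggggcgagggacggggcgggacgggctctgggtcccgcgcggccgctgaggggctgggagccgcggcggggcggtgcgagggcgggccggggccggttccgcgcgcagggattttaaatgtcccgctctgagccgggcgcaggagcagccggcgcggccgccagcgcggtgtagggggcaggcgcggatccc

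The E2F core was searched as TTCCCGC or TTGGCGC on both strands. It occurred in 17 of the 33 promoters (51.5%), against 10.2% of all 23193 promoters of the same length and 13.1% of the 14494 whose genes were tested in both regions. Of the 6 shown, E2F1 held 1 match that begins at the start site itself, MCM6 held 2, E2F2 held 1, and these letters were not in the windows of TK1, RFC5 and CCNE1. By role, the core was in 4 of 6 MCM genes, 3 of 4 licensing genes, 2 of 6 helicase activation genes, 3 of 7 polymerase and clamp genes, 1 of 4 nucleotide supply genes and 4 of 6 entry and checkpoint genes. A CCAAT box (CCAAT), bound by NF-Y, was in 21 of the 33 (63.6%, all promoters 35.5%, those tested 35.4%). A GC box (GGGCGG) was in 24 (72.7%, all promoters 51.7%, those tested 65.9%), close to the share of those tested. The cell cycle homology region (TTTGAA or TTCGAA), common in promoters of mitotic genes, was in 3 (9.09%, all promoters 14.6%, those tested 11.7%). The core of the hypoxia response element (ACGTG or GCGTG), the letters HIF factors bind, was in 19 (57.6%), close to the 53% of all promoters and the 60.5% of those tested. Of 23 E2F core matches in the 33 promoters, 1 shared a base with a CCAAT box and 1 with a GC box. A match says only that these letters are in the window. A gene on the opposite strand starts within 1000 bp upstream in 7 of the 33 (21.2%, all genes 11.5%), among them PCNA, TK1 and POLE. The share among the genes tested, to which all 33 belong, was not computed. The start sites used by the authors lay within 50 bp of a GENCODE transcript start of the same gene for 31 of the 33, and the largest distance was 148 bp, at POLE.

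Per length, the replication genes were more transcribed than most genes. Their median gene body level in WT normoxia was 4.04 RPKM, against 1.56 RPKM over the 14494 genes tested in both regions, and their bodies were somewhat shorter (median 17.0 kb against 22.8 kb). CDT1, the licensing factor with the shortest body, stood highest at 21.0 ± 1.66 RPKM (SD, n = 2), followed by the clamp PCNA at 17.4 ± 2.97, the ribonucleotide reductase subunit RRM2 at 13.8 ± 2.36, MCM7 at 10.4 ± 1.20 and thymidine kinase TK1 at 10.3 ± 2.02. The catalytic subunit of polymerase alpha, POLA1, was lowest at 1.24 ± 0.244 RPKM over a body of 302 kb, below the GINS subunit GINS3 at 1.55 ± 0.25 and cyclin E2 (CCNE2) at 2.05 ± 0.497. Among the helicase subunits the level ran from 3.30 ± 0.243 RPKM for MCM6 to 10.4 ± 1.20 for MCM7, while the ring they form holds each subunit in equal number. E2F1 stood at 5.81 ± 1.6 RPKM and E2F2 at 3.36 ± 0.488, while CCNE1, the cyclin E1 gene, stood at 2.54 ± 0.498. Neighbours in the middle of this order mostly lay closer together than their SD, so these libraries do not rank them. POLA1 was lowest in all 4 groups and CDT1 was highest in all but WT hypoxia, where PCNA was, at 18.2 ± 2.50 RPKM.

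**Figure D1:**
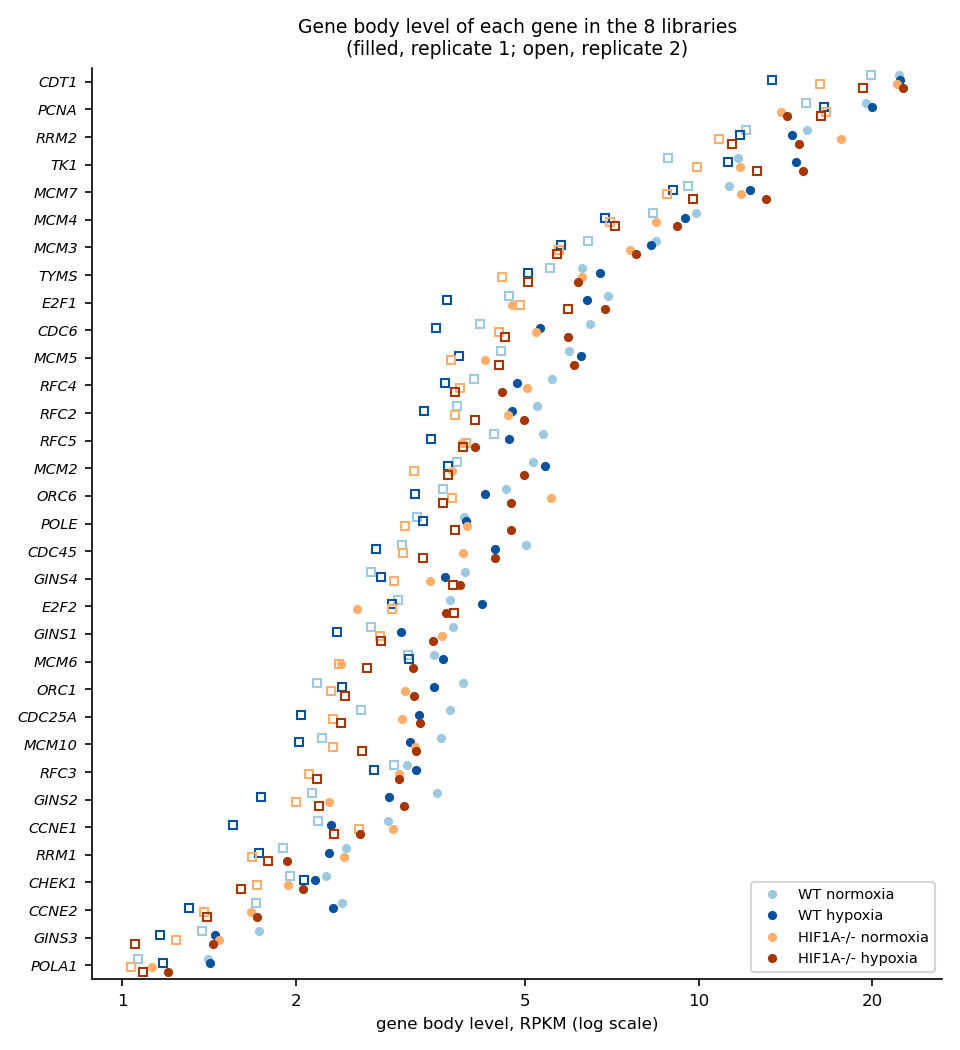
Gene body level of each of the 33 genes (rows, ordered by mean) in the 8 libraries, in RPKM on a log axis, with colour for the group and filled or open symbols for replicates 1 and 2. Group means in WT normoxia run from 1.24 RPKM for POLA1 to 21 RPKM for CDT1, and within most genes the open symbols lie to the left of the filled ones of the same colour.

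Before any comparison of oxygen or genotype, the libraries differed by replicate number. In a fit with the replicate number beside the groups, all 33 genes were lower in replicate 2 than in replicate 1 at gene bodies, and 30 of them passed an FDR of 10%, against 22.6% of the 16686 genes tested that were called lower. The median log2 ratio of replicate 2 over replicate 1 was -0.38 for the 33 and 0.01 for all genes. By group it was -0.39 (WT normoxia), -0.45 (WT hypoxia), -0.27 (HIF1A-/- normoxia) and -0.31 (HIF1A-/- hypoxia), and 29 of the 33 were lower in replicate 2 in all 4 groups, where 25.8% of all genes were. For 20 genes, among them CDC6, CDC45, RRM2 and CDC25A, every replicate 2 library lay below every replicate 1 library, as it did for 9.39% of all genes. ORC1, the largest subunit of the origin recognition complex, had the largest difference, at -0.55 ± 0.08 (SE, edgeR, adjusted p = 0.00502), followed by CDC45 at -0.54 ± 0.08 (adjusted p = 0.00444) and GINS2 at -0.54 ± 0.11 (adjusted p = 0.00968). The 3 genes not called were RFC5 at -0.20 ± 0.09, E2F2 at -0.14 ± 0.11 and PCNA at -0.04 ± 0.11.

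The replicate difference reached beyond the 33 genes to other genes of the cell cycle. Of 46 other replication factors 41 were lower in replicate 2 and 36 were called lower (median log2 ratio -0.31). Of 34 tested genes of the E2F, RB and G1 cyclin network 26 were lower and 15 called (median -0.15). Of 30 genes of G2 and mitosis all 30 were lower and 22 called (median -0.37). The mitotic genes were lowest in replicate 2 of the HIF1A-/- groups, with medians of -0.65 in normoxia and -0.43 in hypoxia against -0.19 and -0.06 in WT cells. Near the start sites of the 33 genes the difference was smaller, with 28 lower in replicate 2, 8 called against 8.71% of the 15212 genes tested, and a median log2 ratio of -0.21. Without the WT normoxia libraries 2 of the 33 were called lower there, and without the HIF1A-/- hypoxia libraries 4. This comparison was made after the values had been seen, the labels do not say what a replicate number stands for beyond an independent replicate, and the cause was not tested. It sets the precision of all that follows, since the fit without the replicate number takes this difference as spread.

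**Figure D2:**
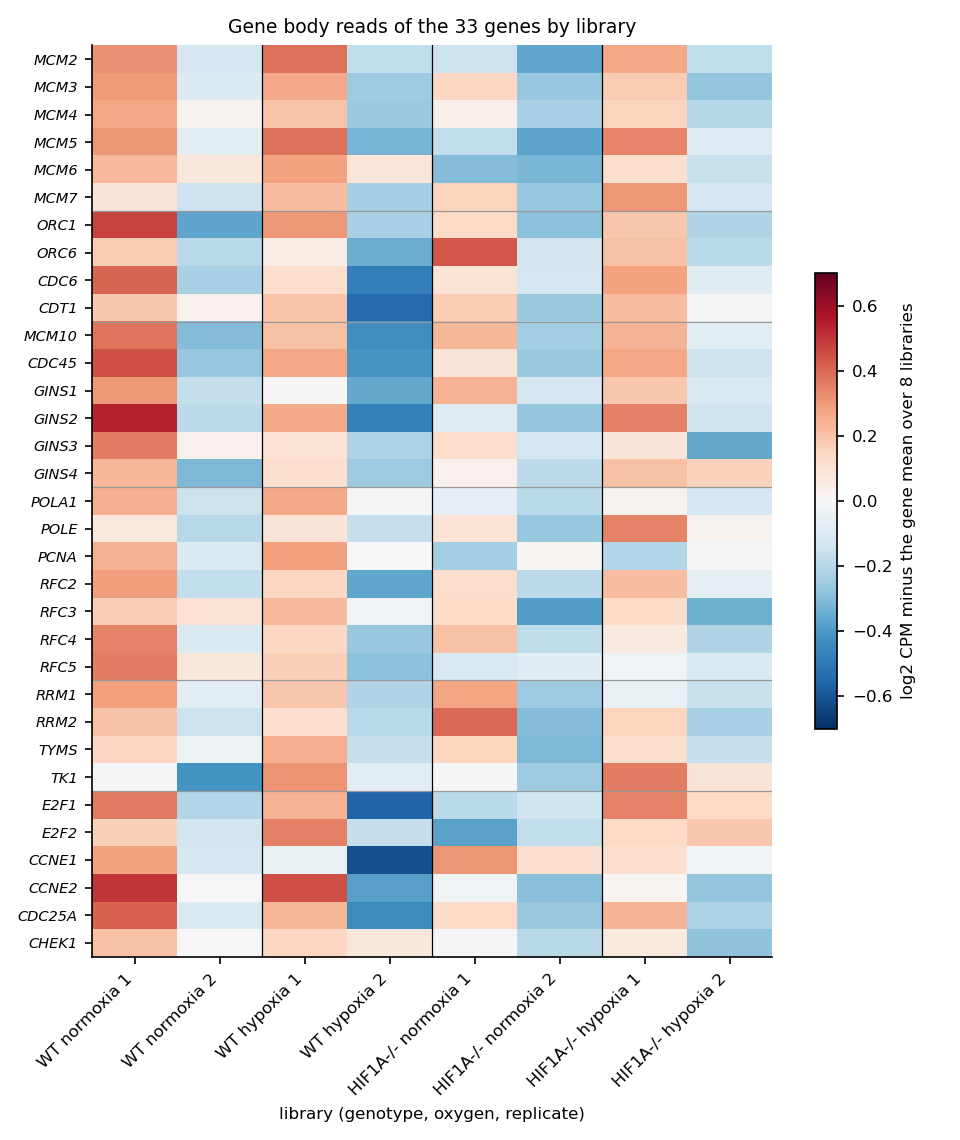
Gene body level of the 33 genes (rows, by role) in the 8 libraries (columns), as log2 CPM minus the mean of the gene over all libraries, with red above and blue below it. Replicate 1 columns are mostly red and replicate 2 columns mostly blue in each of the 4 groups.

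**Figure D3:**
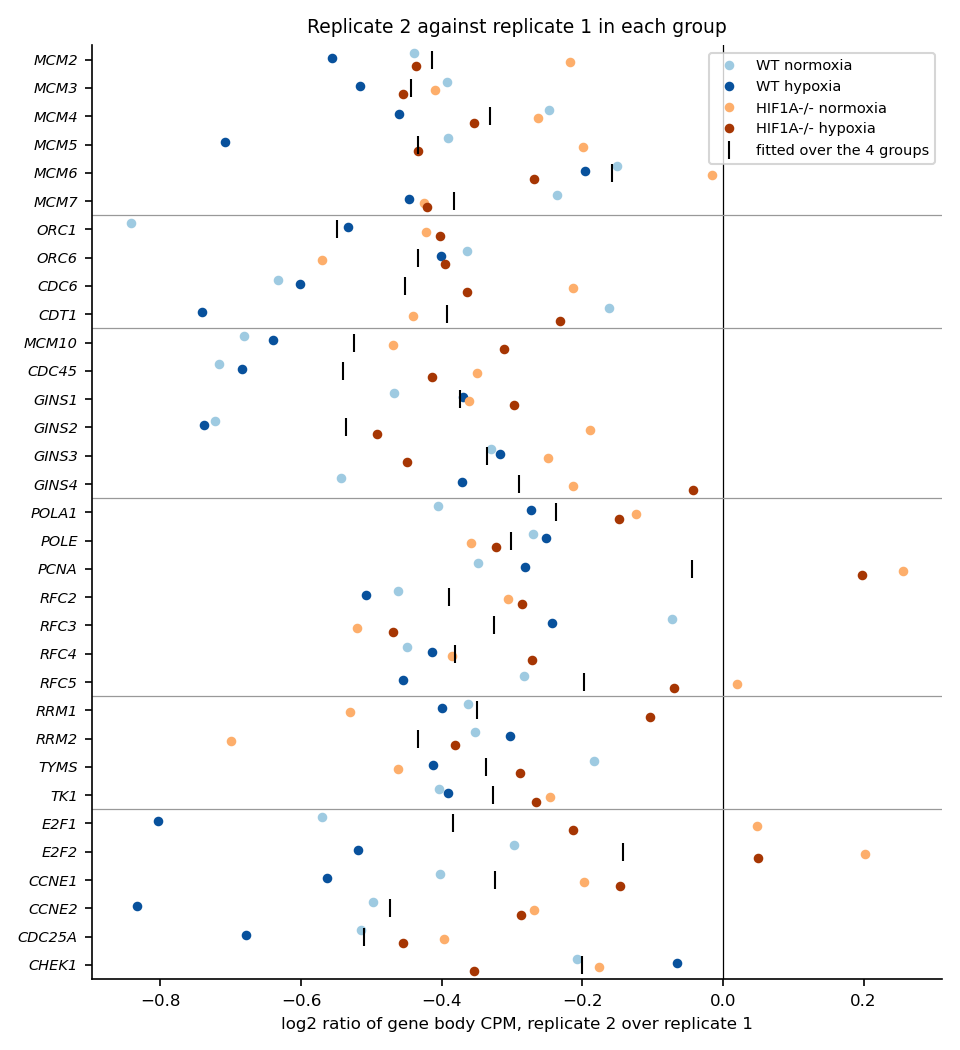
Log2 ratio of gene body CPM in replicate 2 over replicate 1 for each gene, with a point for each group and a black bar for the value fitted over the 4 groups. All 33 bars lie left of 0, and points right of 0 occur only in HIF1A-/- groups, for PCNA, E2F2, E2F1 and RFC5.

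Within 90 min of hypoxia in WT cells, no replication gene passed the test at its gene body. None of the 33 passed an FDR of 10% (edgeR quasi-likelihood test, adjusted over all genes), against 0.431% of the 16686 genes tested, and none had an unadjusted p under 0.05, against 4.61%. DESeq2 also called 0 of the 33. The median log2 change was -0.12, beside -0.02 over all genes. The medians of the pairs of equal replicate number were -0.09 and -0.15. Of the 33, 18 were lower in hypoxia in both pairs, where 37.9% of all genes were, and 5 were higher in both. The largest shifts by role were in helicase activation (median -0.21, 5 of 6 lower in both pairs), S phase entry and checkpoint (-0.20) and origin licensing (-0.19), while the MCM helicase (-0.02), polymerase and clamp (-0.03) and nucleotide supply genes (-0.03) lay near 0. The median SE of a single gene in this comparison was 0.229. The sign of the median of the 33 turned when 1 library was left out, to 0.13 without WT hypoxia replicate 2 and to 0.11 without WT normoxia replicate 1.

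CCNE1 had the smallest p among the 33 in this comparison. It encodes cyclin E1, which activates CDK2 at the start of S phase. Its gene body gave 32.8 and 24.8 CPM in the WT normoxia libraries and 26.1 and 17.6 in the WT hypoxia ones. HIF1A-/- cells gave 33.5 and 29.2 in normoxia and 29.3 and 26.4 in hypoxia. Both WT hypoxia libraries were below the WT normoxia library of the same number, but replicate 1 in hypoxia was above replicate 2 in normoxia, so the groups overlapped. The log2 fold change was -0.40 ± 0.23 (SE, n = 2 per group, adjusted p = 0.897), and -0.33 in the replicate 1 pair and -0.49 in the replicate 2 pair. TK1, which salvages thymidine for DNA synthesis, went the other way. It gave 142 and 107 CPM in normoxia and 179 and 136 in hypoxia in WT cells, and 143 and 120.5 and then 184 and 153 in HIF1A-/- cells. Hypoxia was higher than normoxia in all 4 pairs, with a log2 fold change of 0.34 ± 0.20 in WT cells (adjusted p = 0.897) and 0.36 ± 0.20 in HIF1A-/- cells (adjusted p = 1). With the replicate number as a block, TK1 was the 1 replication gene called in WT cells (adjusted p = 0.0874), where 5.51% of all genes were called, and in HIF1A-/- cells its adjusted p was 0.239 in the same fit. RFC5, a subunit of the clamp loader, gave 78.3 and 64.3 CPM in the WT normoxia libraries and 68.5 and 49.96 in the WT hypoxia ones. The HIF1A-/- libraries held 56.7 and 57.5 in normoxia and 59.7 and 56.9 in hypoxia. In WT cells its log2 fold change was -0.27 ± 0.18 (adjusted p = 0.897), with lower values in hypoxia in both pairs.

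In HIF1A-/- cells most of the genes had values slightly above 0 after the same exposure, and again none was called. The count was 0 of 33 at an FDR of 10% (0% of all genes) and 0 at an unadjusted p under 0.05 (2.08% of all genes), and it stayed 0 with the replicate block, where 0.036% of all genes were called, and with DESeq2. The median log2 change was 0.08, beside 0.00 over all genes, and 26 of the 33 were above 0. Hypoxia was higher in both pairs for 20 genes, where 34.6% of all genes were, and lower in both for 4. Without HIF1A-/- hypoxia replicate 1 the median turned to -0.06, and without HIF1A-/- normoxia replicate 2 to -0.03. The MCM helicase had the largest median of the roles, 0.22, with 5 of 6 subunits higher in both pairs, from 0.01 for MCM3 to 0.41 for MCM5. E2F2, an activator of S phase genes whose promoter above holds an E2F core, had the smallest p. It gave 88.1 and 71.7 CPM in the WT normoxia libraries and 100.3 and 70.0 in the WT hypoxia ones. HIF1A-/- nuclei yielded 60.7 and 69.8 in normoxia and 86.6 and 89.6 in hypoxia, and both HIF1A-/- hypoxia libraries were above both HIF1A-/- normoxia libraries. The same held for 6 of the 33 and for 2017 of all 16686 genes. The log2 fold change was 0.43 ± 0.19 (adjusted p = 1) in HIF1A-/- cells and 0.09 ± 0.19 in WT cells (adjusted p = 0.93). MCM6, which like MCM5 has 2 E2F cores in its promoter, followed at 0.29 ± 0.14 (adjusted p = 1).

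Set side by side, the WT response was lower than the HIF1A-/- response for most of the genes, and the difference did not pass the test for any. The log2 change was below 0 in WT cells and above 0 in HIF1A-/- cells for 16 of the 33, above 0 in both for 10 and below 0 in both for 7. The difference, taken as the WT response minus the HIF1A-/- response, was called for 0 of the 33 at an FDR of 10% (0.0539% of all genes), with the replicate block (0.384%) and with DESeq2, and 0 had an unadjusted p under 0.05 (1.36%). Its median was -0.23, beside -0.02 over all genes, and the replicate pairs gave medians of -0.19 and -0.26. It was below 0 for 28 of the 33 and below 0 in both pairs for 24, where 33% of all genes were. Of these, 9 were lower in hypoxia in both WT pairs and higher in both HIF1A-/- pairs, namely E2F1, CDC6, CDC45, CDC25A, GINS2, MCM4, MCM10, RFC2 and CCNE2. The median turned to 0.02 without WT hypoxia replicate 2 and to 0.00698 without WT normoxia replicate 1. Each of these fits leaves a group with 1 replicate number, so the replicate difference enters the median. Whether the direction depends on particular libraries cannot be told from them.

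E2F1, the activator that gives the network its name, had the largest difference. Its gene body gave 68.9 and 46.4 CPM in the WT normoxia libraries and 63.4 and 36.3 in the WT hypoxia ones. HIF1A-/- cells gave 47.1 and 48.6 in normoxia and 68.1 and 58.8 in hypoxia. In WT cells hypoxia was below normoxia in both pairs, and in HIF1A-/- cells both hypoxia libraries were above both normoxia libraries, as for 2017 of all 16686 genes. The log2 fold change was -0.21 ± 0.28 in WT cells (adjusted p = 0.899) and 0.41 ± 0.28 in HIF1A-/- cells (adjusted p = 1), a difference of -0.62 ± 0.39 (adjusted p = 1), with -0.65 in the replicate 1 pair and -0.63 in the replicate 2 pair. In the fit with the replicate block the adjusted p of this difference was 0.897. GINS2, a subunit of the complex that joins MCM and CDC45 in the active helicase, was next. It gave 36.2 and 22.0 CPM in normoxia and 30.0 and 18.0 in hypoxia in WT cells, and 23.5 and 20.7 and then 31.8 and 22.6 in HIF1A-/- cells. Its difference was -0.58 ± 0.45 (adjusted p = 1), and the groups overlapped in both genotypes. CDC6, which loads the helicase with CDT1, gave 92.4 and 59.6 CPM in the WT normoxia libraries and 75.7 and 49.9 in the WT hypoxia ones. The HIF1A-/- libraries held 74.5 and 64.3 in normoxia and 84.6 and 65.7 in hypoxia. The difference for CDC6 was -0.39 ± 0.38 (adjusted p = 1). By role, the medians were -0.28 for S phase entry and checkpoint, -0.27 for helicase activation (6 of 6 below 0 in both pairs), -0.25 for the MCM helicase (6 of 6 below 0 in both pairs) and -0.24 for licensing, against -0.09 for polymerase and clamp. For the nucleotide supply genes the median was 0.00. RRM2, the regulated subunit of ribonucleotide reductase, gave 119 and 92.8 CPM in normoxia and 112 and 90.5 in hypoxia in WT cells, and 136 and 83.4 and then 115 and 87.9 in HIF1A-/- cells, with a difference of 0.05 ± 0.36.

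**Figure D4:**
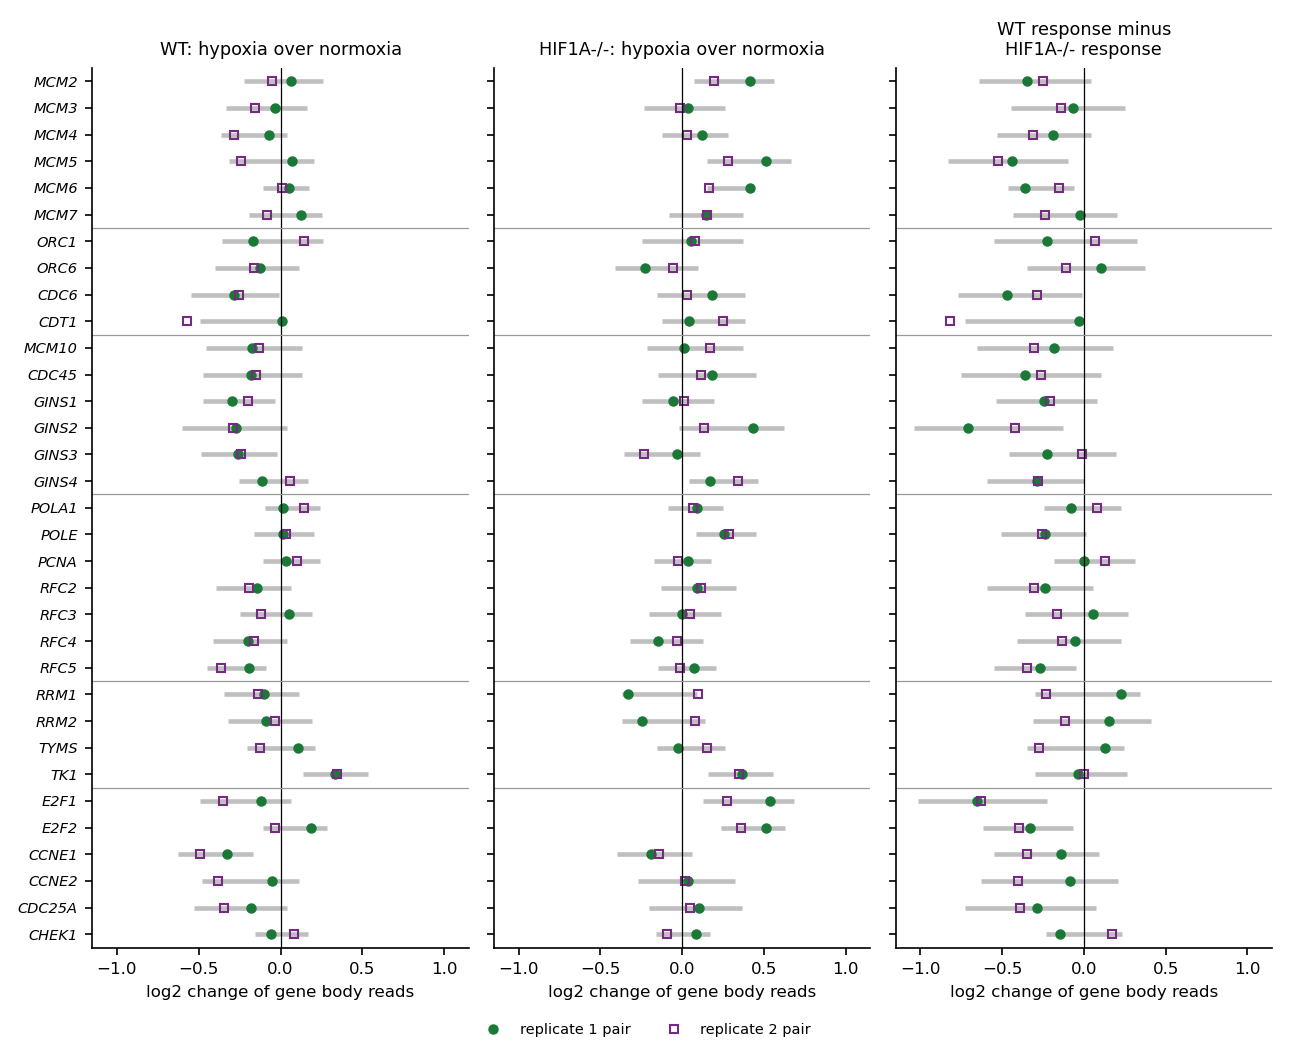
Log2 change of gene body reads in hypoxia for each gene in WT cells (left), in HIF1A-/- cells (middle) and the WT response minus the HIF1A-/- response (right), with circles and squares for the pairs of replicates 1 and 2 and grey bars for the fitted value ± SE. In the right panel 24 of 33 genes have both symbols left of 0, most grey bars reach 0 or past it, and TK1 lies right of 0 in both genotypes.

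Between the lines in normoxia, most replication genes were lower in HIF1A-/- cells, and none passed the test. The count was 0 of 33 (1.78% of all genes), with 1 gene at an unadjusted p under 0.05 (9% of all genes) and none by DESeq2. The median log2 difference, HIF1A-/- minus WT, was -0.17 (all genes -0.01), 29 of the 33 were below 0, and 18 were below 0 in both pairs, where 31.5% of all genes were. The median was -0.22 in the replicate 1 pair and -0.09 in the replicate 2 pair, and without WT normoxia replicate 1 it turned to 0.0517, without HIF1A-/- normoxia replicate 2 to 0.000229. The MCM helicase lay lowest, at a median of -0.31, with 5 of 6 below 0 in both pairs. MCM6 was the gene at a p under 0.05. Its body gave 124 and 112 CPM in the WT normoxia libraries and 129 and 113 in the WT hypoxia ones. HIF1A-/- nuclei yielded 86.1 and 85.1 in normoxia and 115 and 95.2 in hypoxia. Both HIF1A-/- normoxia libraries were below both WT normoxia libraries, as for 7 of the 33 and 2904 of all 16686 genes. The log2 fold change of MCM6 was -0.47 ± 0.14 (adjusted p = 0.284). MCM2, another subunit of the ring, gave 119 and 87.9 CPM in normoxia and 125 and 84.8 in hypoxia in WT cells, and 86.1 and 74.0 and then 115 and 84.8 in HIF1A-/- cells, and its log2 fold change in normoxia was -0.37 ± 0.24 (adjusted p = 0.812). With the replicate block, MCM6 (adjusted p = 0.0221) and MCM2 (adjusted p = 0.0788) were called lower, 2 of 33 where 10.3% of all genes were called. RFC5 was also lower in both HIF1A-/- normoxia libraries, at -0.32 ± 0.18 (adjusted p = 0.731).

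In hypoxia the differences between the lines ran both ways. None of the 33 was called (4.26% of all genes) or had an unadjusted p under 0.05 (15.7% of all genes), DESeq2 called 0, and the median log2 difference was 0.05 (all genes 0.00482), with 18 of the 33 above 0. HIF1A-/- was higher in both pairs for 14 genes, where 35.9% of all genes were, and lower in both for 9. The median ranged from -0.20 without WT hypoxia replicate 2 to 0.32 without WT hypoxia replicate 1, and it was -0.13 without HIF1A-/- hypoxia replicate 1. CCNE1, whose values stand above, had the smallest p, with a log2 fold change of 0.35 ± 0.23 (adjusted p = 0.508) and both HIF1A-/- hypoxia libraries above both WT ones. Such separation was common, with 3487 of all 16686 genes apart upward and 4108 downward, against 2 and 2 of the 33. PCNA, the sliding clamp, was next by p. Its body gave 208 and 164 CPM in the WT normoxia libraries and 213 and 176 in the WT hypoxia ones. HIF1A-/- cells gave 148 and 177 in normoxia and 152 and 174 in hypoxia. All 4 WT libraries lay between 164 and 213 CPM. In hypoxia both HIF1A-/- libraries were below both WT libraries, although the replicate 2 pair differed by -0.01 only, and the log2 fold change was -0.26 ± 0.17 (adjusted p = 0.528). With the replicate block 2 of the 33 were called, CCNE1 (adjusted p = 0.0852) and the polymerase epsilon gene POLE (log2 fold change 0.22 ± 0.08, adjusted p = 0.085), both higher in HIF1A-/- cells, where 28.2% of all genes were called. Comparisons that use the same group share its libraries, so the values above are not independent of each other.

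Near the start sites, where reads mark polymerases that have initiated, the 33 genes gave no call in the fit without the block, and DESeq2 called 0 in each comparison as well. In WT cells the median log2 change in hypoxia was 0.09 (all genes -0.02), of the opposite sign to the gene bodies, and 3 of 33 genes, TK1, MCM2 and MCM4, had an unadjusted p under 0.05, all higher. The median turned to -0.09 without WT normoxia replicate 2 and to -0.05 without WT hypoxia replicate 1. Over all genes the shares were 0.046% at an FDR of 10%, 4.02% at an unadjusted p of 0.05 and 1.01% by the block fit. TK1 gave 396 and 329.8 TSS CPM in the WT normoxia libraries and 499.6 and 499.7 in the WT hypoxia ones. The HIF1A-/- libraries held 381 and 364 in normoxia and 477 and 446 in hypoxia, with hypoxia above normoxia in every pair. The log2 fold change at its start site was 0.46 ± 0.14 in WT cells (adjusted p = 0.922, with the block 0.0854) and 0.31 ± 0.14 in HIF1A-/- cells (adjusted p = 1), and TK1 was the 1 gene of the 33 that the block called here. MCM2 gave 81.3 and 80.7 TSS CPM in normoxia and 101 and 124 in hypoxia in WT cells, and 65.9 and 76.9 and then 81.6 and 78.1 in HIF1A-/- cells, a log2 fold change of 0.47 ± 0.17 in WT cells (adjusted p = 0.922). In HIF1A-/- cells the median was 0.08, with TK1 as the 1 of 33 at an unadjusted p under 0.05 and 0 called with the block, where the shares over all genes were 0% at an FDR of 10%, 0.887% at an unadjusted p of 0.05 and 0.00657% by the block fit. The difference in response had a median of -0.00654, which ran from -0.21 without WT normoxia replicate 2 to 0.23 without replicate 1 of that group, with 0 of 33 at an unadjusted p under 0.05 and 0 called with the block, against 0.00657% at an FDR of 10%, 1.18% at an unadjusted p of 0.05 and 0.046% by the block fit.

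Between the lines, the start sites of the 33 genes gave a median log2 difference of -0.11 in normoxia (0.15 without WT normoxia replicate 1), with 0 at an unadjusted p under 0.05 and 0 called with the block (all genes: 0.657% at an FDR of 10%, 7.99% at an unadjusted p of 0.05 and 4.29% by the block fit). In hypoxia the median was -0.07 (0.04 without WT hypoxia replicate 1), with 3 of 33 at an unadjusted p under 0.05, MCM2, RFC4 and PCNA, all lower in HIF1A-/- cells, and 6 called with the block (all genes: 1.1% at an FDR of 10%, 13.7% at an unadjusted p of 0.05 and 14.4% by the block fit). Those 6 were split evenly in direction. MCM2 (-0.49 ± 0.15), PCNA (-0.47 ± 0.15) and the clamp loader subunit RFC4 (-0.43 ± 0.15) were lower, with adjusted p of 0.0431, 0.0537 and 0.0645. CDC6 (0.47 ± 0.14), RRM2 (0.40 ± 0.13) and the checkpoint kinase gene CHEK1 (0.45 ± 0.17) were higher, with adjusted p of 0.0328, 0.0458 and 0.095. At CDC6 the TSS levels were 151 and 99.0 CPM in the WT normoxia libraries and 121 and 89.1 in the WT hypoxia ones. HIF1A-/- nuclei yielded 199 and 132 in normoxia and 153 and 133 in hypoxia. At PCNA they were 82.2 and 100.3 CPM in normoxia and 94.6 and 110.2 in hypoxia in WT cells, and 84.7 and 81.3 and then 68.6 and 79.5 in HIF1A-/- cells.

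The pausing index, TSS reads per base over gene body reads per base, tells how far polymerase was gathered near the promoter. In WT normoxia the 33 genes had a median index of 32.8, below the 46.7 of all genes tested in both regions, and the same order held in WT hypoxia (33.8 against 47.1), HIF1A-/- normoxia (37.4 against 45.6) and HIF1A-/- hypoxia (33.5 against 45.5). The range among the 33 was wide. GINS4 at 109.6 ± 3.06 (SD, n = 2), CCNE2 at 91.0 ± 11.8, CDC25A at 87.8 ± 2.67 and GINS1 at 80.9 ± 5.28 were the most paused in WT normoxia, and CDT1 at 2.88 ± 0.975, E2F1 at 3.87 ± 2.90, CCNE1 at 5.98 ± 3.56 and RRM1 at 6.25 ± 0.726 the least. At the genes with a low index the TSS counts were also low, 18 to 102 reads at E2F1 and 16 to 61 at CCNE1. The GINS subunits GINS1, GINS2, GINS3 and GINS4 all exceeded the median of the 33 in WT normoxia. The MCM subunits lay on both sides of it, with MCM6 at 44.9 ± 7.13 and MCM2 at 33.5 ± 6.99 above, and MCM3 at 28.2 ± 1.25, MCM5 at 18.3 ± 0.81, MCM7 at 18.0 ± 0.403 and MCM4 at 15.8 ± 0.937 below.

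No change of the index was called for any of the 33 in the fit without the block or by DESeq2. In WT cells hypoxia gave a median log2 change of 0.18 (all genes 0.00917), 25 of the 33 above 0, 2 at an unadjusted p under 0.05 and 0 called with the block. Of all 14494 genes, the shares past an FDR of 10%, past an unadjusted p of 0.05 and called with the block were 0.193%, 5.2% and 0.483%. Helicase activation genes had the highest median by role, 0.42, with 6 of 6 above 0. GINS1 was among the 2, with an index of 77.1 and 84.6 in normoxia and 101 and 121 in hypoxia in WT cells, and 79.8 and 94.3 and then 86.3 and 94.2 in HIF1A-/- cells. Both WT hypoxia libraries were above both WT normoxia libraries, with a log2 change of 0.45 ± 0.21 (adjusted p = 0.872). Such separation upward was found for 13 of the 33 and for 2658 of all 14494 genes. MCM4 was the other, at 0.54 ± 0.26 (adjusted p = 0.872), and the replicate 2 pair moved more than the replicate 1 pair (0.81 against 0.27). Without WT hypoxia replicate 2 the median of the 33 was 0.0251, and without WT hypoxia replicate 1 it was 0.32. The medians also differed by pair, 0.06 and 0.38. In HIF1A-/- cells the median was -0.03, turning to 0.06 without HIF1A-/- hypoxia replicate 1 and to 0.05 without HIF1A-/- normoxia replicate 2, with 0 at an unadjusted p under 0.05 and 0 called with the block, beside 0%, 1.58% and 0% of all genes. For the difference in response the median was 0.23 (0.01 without WT hypoxia replicate 2), 26 of the 33 were above 0, 0 were at an unadjusted p under 0.05 and 0 were called with the block, beside 0.0207%, 1.82% and 0.145% of all genes.

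Between the lines the index of CHEK1, the kinase that restrains the cycle when replication stalls, had the smallest p of the 33 at both oxygen levels. It was 44.2 and 42.5 in the WT normoxia libraries and 46.2 and 46.1 in the WT hypoxia ones. HIF1A-/- cells gave 70.2 and 57.8 in normoxia and 72.0 and 75.3 in hypoxia. Every HIF1A-/- library was above every WT library. Of all 14494 genes, 2406 had both HIF1A-/- libraries above both WT ones in normoxia and 3328 in hypoxia. The log2 difference was 0.56 ± 0.22 in normoxia (adjusted p = 0.759, with the block 0.272) and 0.67 ± 0.22 in hypoxia (adjusted p = 0.242, with the block 0.0571). At gene bodies CHEK1 gave 67.2 and 58.2 CPM in the WT normoxia libraries and 64.4 and 61.5 in the WT hypoxia ones. The HIF1A-/- libraries held 57.7 and 51.0 in normoxia and 61.3 and 47.9 in hypoxia. At the start site the levels were 54.9 and 45.7 CPM in normoxia and 55.1 and 52.4 in hypoxia in WT cells, and 74.9 and 54.6 and then 81.6 and 66.7 in HIF1A-/- cells. CHEK1 was named for this pattern after its values were seen. In normoxia 3 of the 33, CHEK1, CDC6 and CCNE2, had an unadjusted p under 0.05 and 0 were called with the block, beside 0.0759%, 6.33% and 0.683% of all genes, and the median was 0.10 (0.0213 without HIF1A-/- normoxia replicate 2). In hypoxia 4 of 33, CHEK1 and RRM1 with a higher index and CDC45 and GINS2 with a lower one in HIF1A-/- cells, had an unadjusted p under 0.05 and 2 were called with the block, beside 0.718%, 12% and 6.55% of all genes, and the median was -0.18 (0.03 without WT hypoxia replicate 2). The second gene called was CDC45, which travels with the active helicase, at -0.68 ± 0.21 (adjusted p = 0.0831).

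**Figure D5:**
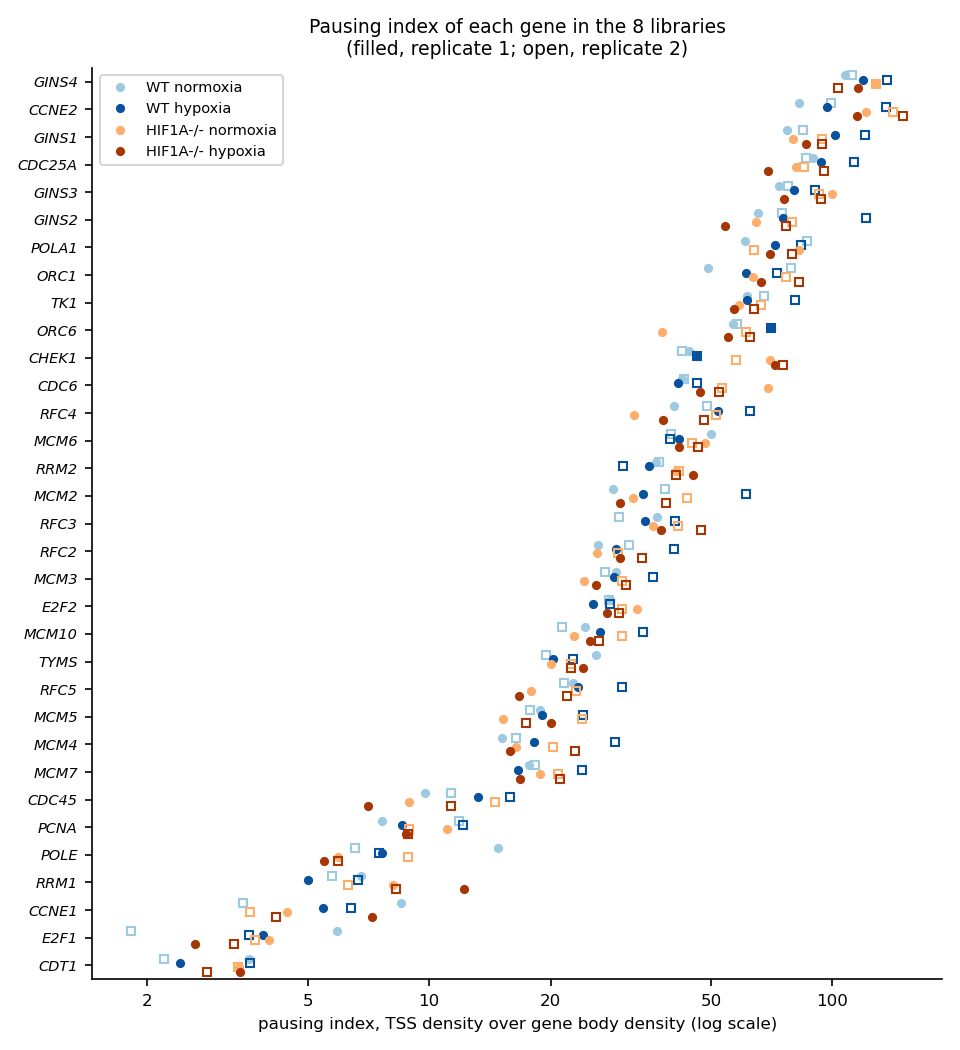
Pausing index of each gene (rows, ordered by mean) in the 8 libraries on a log axis, with colour for the group and filled or open symbols for replicates 1 and 2. Group means in WT normoxia run from 2.88 for CDT1 to 110 for GINS4, and all 4 HIF1A-/- symbols of CHEK1 lie right of its WT symbols.

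Other genes of replication and of the cycle were read in the same gene body fits. Of 46 further replication factors edgeR without the block called none in any of the 5 comparisons. DESeq2 called 1 higher in HIF1A-/- cells in normoxia and 1 in hypoxia. The block called 1 higher and 3 lower in normoxia and 8 higher and 6 lower in hypoxia. Over all genes edgeR called 1.78% between the lines in normoxia and 4.26% in hypoxia without the block, and 10.3% and 28.2% with it. DESeq2 called 299 of all 16686 genes higher in HIF1A-/- cells in normoxia and 521 in hypoxia. The medians of the 46 factors were -0.11 in WT hypoxia, 0.05 in HIF1A-/- hypoxia and -0.13 for the difference in response. They were of the same signs as those of the 33 and nearer to 0. TOP1, the topoisomerase that relaxes DNA ahead of the fork, had the smallest p among them in 4 of the 5, at -0.22 ± 0.11 (adjusted p = 0.897) and -0.23 ± 0.11 (adjusted p = 1) in hypoxia in WT and HIF1A-/- cells, and 0.35 ± 0.11 (adjusted p = 0.295) and 0.34 ± 0.11 (adjusted p = 0.188) between the lines, where the block called it at both oxygen levels (adjusted p = 0.0408 and 0.0238). In the E2F, RB and G1 cyclin network, 34 of 35 genes were tested and CDC25B, a phosphatase that activates cyclin kinases, was the 1 gene that edgeR called without the block. It gave 42.4 and 47.4 CPM in the WT normoxia libraries and 38.1 and 39.1 in the WT hypoxia ones, then 74.5 and 68.3 in HIF1A-/- cells in normoxia and 68.5 and 68.2 in hypoxia, without overlap between the lines. The difference was 0.67 ± 0.13 (adjusted p = 0.0623) in normoxia and 0.83 ± 0.13 (adjusted p = 0.0205) in hypoxia. Of all 16686 genes, 2478 had both HIF1A-/- libraries above both WT ones in normoxia and 3487 in hypoxia. Between the lines DESeq2 called 2 genes of this list higher in HIF1A-/- cells in normoxia and 2 in hypoxia. Of the 34 the block called 3 higher and 1 lower in normoxia and 5 higher and 6 lower in hypoxia. Of all genes it called 10.3% and 28.2%. TFDP2, a partner subunit of E2F factors, was higher in hypoxia in all 4 pairs, at 0.67 ± 0.24 (adjusted p = 0.897) in WT cells and 0.60 ± 0.24 (adjusted p = 1) in HIF1A-/- cells, and in WT cells the block called it (adjusted p = 0.00739). CDKN1B, the cyclin kinase inhibitor p27, had the smallest p in this list for the difference in response, 0.58 ± 0.22 (adjusted p = 1), above 0 where most of the 33 lay below it. Over this list the medians were -0.01 in WT hypoxia, -0.05 in HIF1A-/- hypoxia, 0.03 for the difference in response, and -0.07 and -0.08 between the lines in normoxia and hypoxia. CCND1, which encodes cyclin D1 and drives progress through G1, gave 275 and 310.3 CPM in the WT normoxia libraries and 279 and 265 in the WT hypoxia ones, then 1087 and 448 in HIF1A-/- cells in normoxia and 1149.5 and 527 in hypoxia, so its HIF1A-/- levels were above its WT levels in every library and differed widely by replicate number. The difference was 1.39 ± 0.45 (adjusted p = 0.32) in normoxia and 1.62 ± 0.45 (adjusted p = 0.128) in hypoxia, and the block called it at both oxygen levels (adjusted p = 0.0617 and 0.0163).

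Genes of G2 and mitosis, read from a list of 30, had medians of the opposite sign to those of the 33 in 3 of the 5 comparisons, a difference that was not tested. In HIF1A-/- cells the median log2 change in hypoxia was 0.08 for the 33 and 0.22 for the MCM helicase, the highest of their roles. For the 30 it was -0.24, with -0.34 in the replicate 1 pair and -0.10 in the replicate 2 pair. Of the 30, 25 were lower in both pairs, as 5742 of all 16686 genes were, and none was above 0. In WT cells the median of the 30 was -0.17, and the difference in response was 0.10, with 24 of 30 above 0. Between the lines in normoxia all 30 were higher in HIF1A-/- cells, with a median of 0.32, but the median was 0.51 in the replicate 1 pair and 0.00742 in the replicate 2 pair. None of the 30 was called in any comparison by edgeR without the block or by DESeq2. The block called 1 higher in HIF1A-/- cells in normoxia and 5 in hypoxia, where it called 10.3% and 28.2% of all genes. CENPE, a kinetochore motor, gave 136 and 125 CPM in the WT normoxia libraries and 99.1 and 100.05 in the WT hypoxia ones, then 219 and 144 in HIF1A-/- cells in normoxia and 149.9 and 112 in hypoxia, at 0.47 ± 0.22 (adjusted p = 0.591) between the lines in normoxia and -0.47 ± 0.22 (adjusted p = 1) in HIF1A-/- hypoxia. In hypoxia between the lines the median was 0.19, with 0.39 in the replicate 1 pair and -0.04 in the replicate 2 pair.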

How the data were processed

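PRO-seq libraries of HCT116 cells had been made from isolated nuclei, with 2 independent replicates in each of 4 groups. The authors aligned the reads to GRCh37 and counted those mapped to a TSS region and a gene body of each gene. The TSS region ran from 50 bp before to 500 bp after the most active RefSeq start (551 bp). The gene body ran from 1001 bp past that start to the end of the shortest annotated form of the gene. The submitters' processing notes name bcl2fastq 2.20.0.422, FastQC 0.11.5, HISAT2 2.1.0, SAMtools 1.5 and Subread 1.6.2. The deposited values are raw counts per gene and library, with no normalization. Whether counting used strand is not given in the sources used here.

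Counts were tested in R 4.3.3 with the quasi-likelihood test of edgeR 4.0.16, with TMM scaling, genes above 0.5 CPM in at least 2 of 8 libraries, a mean per group over all 8 libraries, and Benjamini-Hochberg adjustment over all genes tested at an FDR of 10%. A change of pausing index was the difference between TSS and body changes in 1 fit of 16 columns with a term for each library. Alternatives were DESeq2 1.42.0, library totals, no filter, each library left out, and the replicate number as a block. The labels do not state whether replicate numbers pair the libraries. The numbers were taken to pair them, because deviations from the group means correlated between all 6 pairs of groups over all genes. There r ran from 0.501 to 0.848 at gene bodies and from 0.218 to 0.522 at TSS regions. Over the replication genes alone it ran from -0.0102 to 0.61 and from 0.0269 to 0.637. For these genes, r at gene bodies was 0.545 within WT, 0.61 within HIF1A-/- and -0.0102 to 0.169 between genotypes. Levels per length are CPM per kilobase (RPKM), and pairs of libraries were compared on log2 of CPM plus 0.01. The fits were tested on simulated data with known changes. Those data held no replicate difference, so they do not show how the fits behave with one.

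Values in every library are given for genes called without the block, for those with the 3 lowest p of a gene body comparison, and for E2F1, CCNE1, CDC6, MCM2, PCNA and RRM2. Genes of other lists are named where called or among the 2 with the smallest p. Further genes are named where a count of 5 or fewer holds them, where the block called them or as the ends of a range, after their values were seen. The members and the lists were chosen with earlier results of these data known. With 2 independent replicates a group, p-values set a difference between groups against a spread between libraries. That spread was estimated over all 4 groups, with information shared across genes. Promoter windows were read from the GRCh37 genome, and transcript starts from its GENCODE annotation.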

Additional observations from a re-analysis of the deposited data

How the results depend on the processing

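None of the 33 genes was called in any comparison at gene bodies, at start sites or in the pausing index under DESeq2, with library totals in place of TMM, without the filter on low counts, or without any 1 of the 8 libraries. With the replicate number as a block, 1, 2 and 2 genes were called at gene bodies in WT hypoxia and between the lines in normoxia and in hypoxia, 1 and 6 at start sites in WT hypoxia and between the lines in hypoxia, and 2 in the pausing index between the lines in hypoxia. The block moved no other count of called genes. With library totals the HIF1A-/- hypoxia median was 0.12 at gene bodies and -0.069 in the pausing index. Among single genes, PCNA in HIF1A-/- hypoxia turned to -0.000985 with DESeq2 and -0.00546 without the filter, and RRM2 between the lines in hypoxia turned to -0.00401 with the block. The call of replicate 2 against replicate 1 at start sites fell to 2 genes without the WT normoxia libraries and to 4 without the HIF1A-/- hypoxia libraries, and at gene bodies it stayed between 25 and 30 genes, under alternatives chosen after seeing the data. Leaving out 1 library leaves a group with replicate 1 or replicate 2 alone. Then the median log2 change at gene bodies ran from -0.36 to 0.13 in WT hypoxia, from -0.056 to 0.28 in HIF1A-/- hypoxia, from -0.42 to 0.020 in the difference in response, from -0.34 to 0.052 in HIF1A-/- against WT in normoxia and from -0.20 to 0.32 in HIF1A-/- against WT in hypoxia. Likewise the median log2 change at start sites ran from -0.089 to 0.27 in WT hypoxia, from 0.020 to 0.18 in HIF1A-/- hypoxia, from -0.21 to 0.23 in the difference in response, from -0.25 to 0.15 in HIF1A-/- against WT in normoxia and from -0.16 to 0.040 in HIF1A-/- against WT in hypoxia, and the median log2 change at pausing indices ran from -0.13 to 0.065 in HIF1A-/- hypoxia, from 0.0097 to 0.39 in the difference in response and from -0.34 to 0.028 in HIF1A-/- against WT in hypoxia. For single genes at gene bodies over the same 8 fits, E2F2 ran from -0.18 to 0.33 in WT hypoxia and from -0.19 to 0.35 in HIF1A-/- against WT in hypoxia. MCM6 ran from -0.060 to 0.13 in WT hypoxia. TK1 ran from -0.22 to 0.20 in the difference in response, from -0.094 to 0.30 in HIF1A-/- against WT in normoxia and from -0.086 to 0.32 in HIF1A-/- against WT in hypoxia. CCNE1 ran from -0.53 to 0.027 in the difference in response and from -0.051 to 0.34 in HIF1A-/- against WT in normoxia. RFC5 ran from -0.23 to 0.24 in HIF1A-/- against WT in hypoxia. E2F1 ran from -0.66 to 0.14 in WT hypoxia, from -0.51 to 0.044 in HIF1A-/- against WT in normoxia and from -0.00018 to 0.82 in HIF1A-/- against WT in hypoxia. GINS2 ran from -0.69 to 0.12 in WT hypoxia, from -0.70 to 0.0091 in HIF1A-/- against WT in normoxia and from -0.14 to 0.61 in HIF1A-/- against WT in hypoxia. PCNA ran from -0.097 to 0.25 in WT hypoxia, from -0.13 to 0.15 in HIF1A-/- hypoxia and from -0.10 to 0.25 in the difference in response. MCM2 ran from -0.28 to 0.27 in WT hypoxia and from -0.32 to 0.25 in HIF1A-/- against WT in hypoxia. CDC6 ran from -0.60 to 0.075 in WT hypoxia, from -0.056 to 0.28 in HIF1A-/- hypoxia, from -0.40 to 0.22 in HIF1A-/- against WT in normoxia and from -0.014 to 0.60 in HIF1A-/- against WT in hypoxia. RRM2 ran from -0.23 to 0.12 in WT hypoxia, from -0.40 to 0.26 in HIF1A-/- hypoxia, from -0.32 to 0.35 in the difference in response, from -0.30 to 0.37 in HIF1A-/- against WT in normoxia and from -0.19 to 0.18 in HIF1A-/- against WT in hypoxia. With 2 libraries a group, differences smaller than about the SE given with each gene could not be told from the spread at this depth. Larger ones are not thereby resolved. MCM6 at gene bodies between the lines in normoxia stood at -0.47 ± 0.14 and was not called by edgeR without the block (adjusted p = 0.284). The SE of that fit also takes in the replicate difference.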
